A study of Mus musculus with 9 samples.

Results

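Immune checkpoint genes encode the receptors and ligands that raise or lower the response of a T cell once its antigen receptor has been engaged. A set of 10 genes was followed, of 55487 listed and 15536 tested: Ctla4, Pdcd1, Lag3, Havcr2, Tigit, Btla, Cd160, Cd200, Cd274 and Icos. They were taken by gene name from the table of transcript levels, as a set of named checkpoint genes proposed with earlier results of these data known, and all 10 passed the filter on low values. The name coinhibitory receptor fits 7 of them. Cd274 (PD-L1) and Cd200 encode ligands, and Icos encodes a costimulatory receptor of the CD28 family.

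Most coinhibitory receptors, with BTLA as an exception, are scarce on resting CD4+ T cells and appear after activation, when they limit further signaling. CTLA-4 competes with CD28 for CD80 and CD86, PD-1 recruits SHP-2 to the activated receptor complex, and LAG-3 binds MHC class II molecules, which are also the ligands of CD4. TIGIT competes with the costimulatory receptor CD226 for PVR and Nectin-2, whereas BTLA and CD160 both bind the herpesvirus entry mediator encoded by Tnfrsf14.

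RNA-seq was performed on splenic CD4+ T cells of wild-type (Trail-r+/+) C57BL/6 mice, female and 6–7 weeks old. Cells were isolated by negative selection and sequenced as 3 libraries in each of 3 groups. Untreated cells were cultured in medium alone, for a time the labels do not give. A second group was activated for 24 h with Abs against CD3 at 3 µg/ml and CD28 at 2 µg/ml, and the last received the same Abs together with 10 µg/ml TRAIL, a member of the TNF ligand family that binds TRAIL-R. The labels do not say that libraries of a group came from separate animals or cultures, so p-values measure only the spread between these samples, which may be technical.

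Levels are given in TPM, in which reads are divided by gene length and each library is scaled to 1000000, so genes may be compared with each other and every value is a share of one total. The table keeps no read numbers, and the depth of the libraries is unknown. Between 13691 and 14909 genes reached 1 TPM per library. Groups were compared with limma on log2(TPM + 1), and a gene was called higher or lower at a Benjamini-Hochberg adjusted p under 0.05 over all tested genes and a log2 fold change of 1 or more in either direction, a scale that understates the change of low genes. In these bulk samples, fewer cells of a type and less RNA per cell cannot be told apart.

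The negative selection left transcripts of other spleen cells in the libraries, and their levels moved with the groups. The summed TPM of 7 B cell markers was 2041 to 2099 in medium, 150.3 to 166 after activation and 842 to 941 with TRAIL. For 7 myeloid markers the sums were 1212 to 1302, 32.0 to 39.7 and 953 to 1073 TPM, and for 5 NK cell markers 174 to 223, 32.6 to 39.2 and 60.5 to 67.6 TPM. All 7 B cell, 7 myeloid and 5 NK cell markers were called lower after activation, as were 5 of 5 dendritic cell and 5 of 5 erythroid markers. With TRAIL, all 7 B cell, 7 myeloid and 5 erythroid markers were called higher than in activated T cells, as were 3 of 5 NK cell and 3 of 5 dendritic cell markers. Sums were 51.7 to 56.8, 4.63 to 6.77 and 31.9 to 34.2 TPM for dendritic cell markers, and 2061 to 2502, 24.8 to 39.6 and 607 to 656 TPM for erythroid markers. No marker of B, myeloid or NK cells was as low as 0.0001 TPM, the floor set here, in any library. In an activated library, 1 dendritic cell and 1 erythroid marker were that low. The most abundant B cell marker, Cd79a, averaged 555, 23.3 and 268 TPM in the 3 groups, and the most abundant myeloid marker, Lyz2, averaged 545, 7.48 and 346 TPM. The 7 T cell markers, including Cd4, Cd3d and Lck, summed to 2393 to 2839 TPM across all groups. Among them Cd2 was called higher with activation (392 to 839 TPM) and Cd3g lower (615 to 299 TPM), and Cd3g was at 595 TPM with TRAIL. Cd3g is part of the CD3 scaling tried as an alternative, in which libraries were brought to equal sums of Cd3d, Cd3e and Cd3g. The part of these other cells in the results that follow was not tested.

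The 10 genes together took a mean of 542 ± 36.4 TPM in medium, 1219 ± 42.5 TPM in activated T cells and 588 ± 15.4 TPM in TRAIL-treated activated T cells (SD, n = 3). Activation raised Lag3, Tigit, Ctla4, Cd274, Icos and Cd200 and lowered Btla and Cd160, so 8 of the 10 genes were called. Of all tested genes, 12.4% were called higher and 19.5% lower in that comparison. TRAIL lowered 4 of the 10 relative to activation alone, Lag3, Cd200, Tigit and Cd274, where 14.3% of all tested genes were called lower. It raised none of the 10 at these thresholds in limma, whereas 16.6% of all tested genes were called higher, and 2 of the 10 were higher at an unadjusted p under 0.05, as were 35.1% of all tested genes. Against medium, TRAIL-treated activated T cells had higher Ctla4 and Icos, compared with 2.49% of all tested genes. Limma called none of the 10 lower against medium, compared with 2.13% of all tested genes, and 4 of the 10 were lower at an unadjusted p under 0.05, as were 33.3% of all tested genes. At a limma adjusted p under 0.05 and any fold, 9, 8 and 8 of the 10 genes passed in the 3 comparisons, and 68.7%, 67.1% and 32.6% of all tested genes did. The median log2 fold change of the 10 genes was 1.68 for activation, -0.47 for TRAIL against activation and 0.15 for TRAIL against medium, and the medians of all tested genes were -0.15, 0.011 and -0.18. The comparisons share libraries and are not independent of each other.

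**Figure D1:**
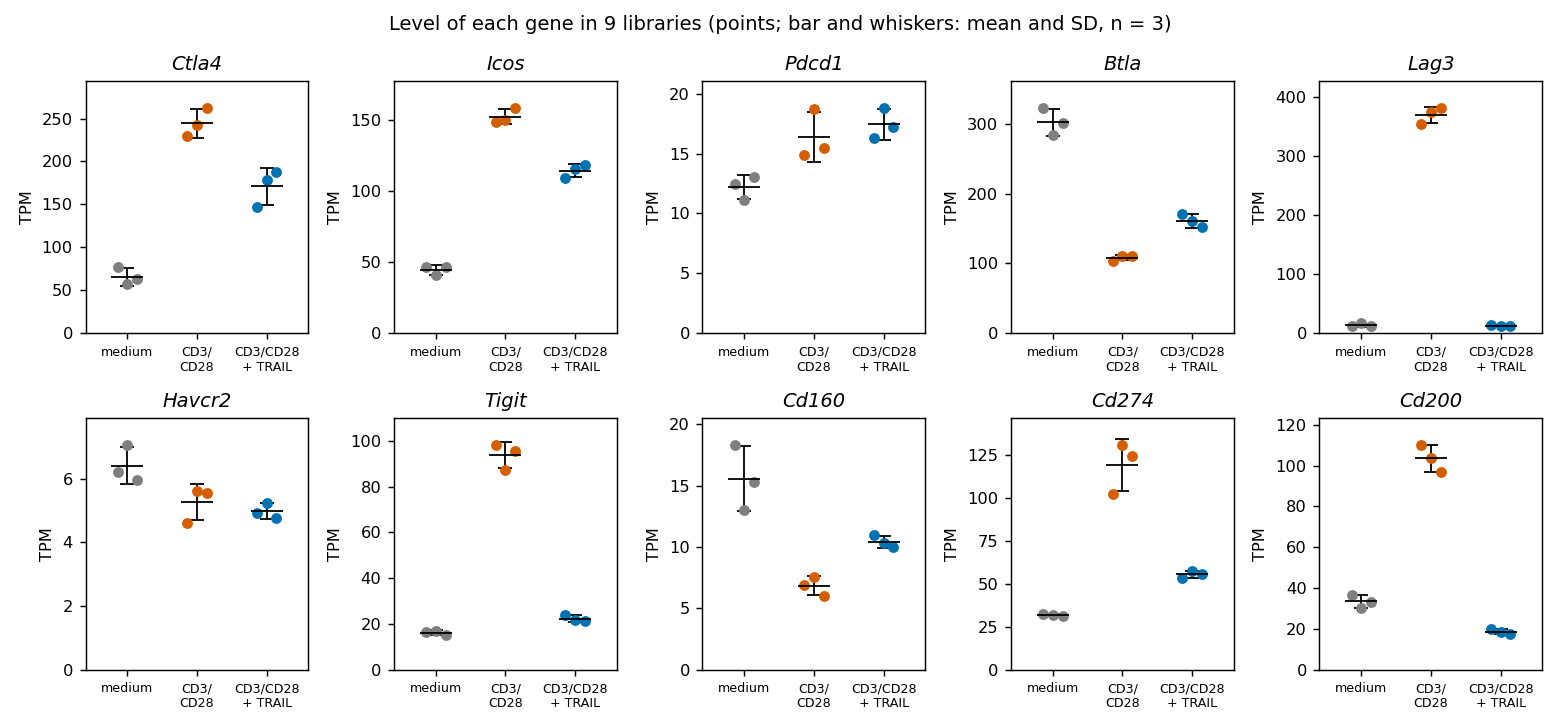
Levels of the 10 genes in TPM, on a linear axis from 0 with its own range for each gene; points are libraries, and the bar and whiskers give the mean and SD of 3 libraries. Lag3 reached 354 to 381 TPM only in the 3 libraries activated without TRAIL, Ctla4 and Icos stayed above medium in the TRAIL-treated libraries, and Pdcd1 and Havcr2 lay between 4.62 and 18.8 TPM throughout.

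Of the CD28-family receptors, Ctla4 and Icos were raised by activation and were still called higher than in medium in the presence of TRAIL. Ctla4 stood at 76.8, 56.7 and 62.7 TPM in the medium libraries, at 229, 242 and 262 TPM after activation, and at 147, 178 and 188 TPM after activation with TRAIL. The TRAIL-treated libraries lay between the other groups without overlap with either. Relative to medium, Ctla4 rose by 1.90 on the log2 scale with activation (SE 0.133, limma adjusted p = 6.4e-07) and by 1.38 with TRAIL (limma adjusted p = 7.5e-05). The difference between the activated groups was -0.52 (95% interval -0.82 to -0.22, limma adjusted p = 0.00572), which did not reach the fold change threshold.

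Icos, whose product drives help to B cells, gave 46.3, 40.5 and 46.5 TPM in medium, 149, 149.65 and 158 TPM after activation and 109, 116 and 118 TPM with TRAIL. Its groups did not overlap either. Icos rose by 1.76 on the log2 scale with activation (SE 0.0882, limma adjusted p = 5.4e-08) and by 1.34 with TRAIL against medium (limma adjusted p = 5.4e-06), and the activated groups differed by -0.41 (limma adjusted p = 0.0020), below the fold threshold. Under quantile normalization the differences between the activated groups were -0.18 for Icos (limma adjusted p = 0.102) and -0.32 for Ctla4 (limma adjusted p = 0.0777), and under CD3 scaling the Icos difference was -0.81. Ctla4 (chr1:60887000-60915832, GRCm38) and Icos (chr1:60977927-61000320) lie on the same strand 62.1 kb apart with no protein-coding gene between them. The ratio of Ctla4 to Icos was 1.47 ± 0.167 in medium, 1.61 ± 0.0589 after activation and 1.49 ± 0.134 with TRAIL (SD, n = 3), with overlapping ranges. The pair was chosen after the values were seen, so the ratio is a description.

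Regulatory T cells hold high levels of CTLA-4, ICOS and TIGIT. Their defining transcription factor Foxp3 stood at 29.1 ± 5.37, 25.5 ± 5.90 and 25.1 ± 2.83 TPM in medium, activated and TRAIL-treated cells (SD, n = 3) and was not called in any comparison. The 9 regulatory T cell markers summed to 233 to 269 TPM in medium, 918 to 1170 TPM after activation and 183 to 216 TPM with TRAIL. Most of that sum after activation was Il2ra, which activated conventional T cells also express and which averaged 868 TPM. Besides Il2ra, Ikzf4 and Lrrc32 were called higher with activation, while Nrp1 (18.7 to 2.37 TPM), Ikzf2 (24.2 to 6.90 TPM) and Itgae (9.89 to 1.04 TPM) were called lower. With TRAIL against activation, Nrp1, Ikzf2 and Itgae were called higher and Il2ra, Ikzf4 and Gpr83 lower. None of the 9 was at the floor of 0.0001 TPM. Follicular helper T cells express Icos, Pdcd1, Btla and Cd200, and the 5 markers of these cells summed to 333 to 354 TPM in medium, 452 to 469 TPM after activation and 218 to 223 TPM with TRAIL. The sum after activation was mostly Il21, a cytokine that averaged 1.53, 346 and 1.01 TPM. The other 4 markers, Bcl6, Cxcr5, Pou2af1 and Sh2d1a, were all called lower with activation, and Bcl6 and Sh2d1a were called higher with TRAIL against activation. Bcl6, the factor that defines these cells, averaged 33.3, 6.74 and 35.3 TPM. None of the 5 was at the floor of 0.0001 TPM. The part of either subset in the levels of the 10 genes was not tested.

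Pdcd1 (chr1:94038305-94052553), which encodes PD-1, was low throughout. Its libraries held 12.5, 11.1 and 13.1 TPM in medium, 14.9, 18.8 and 15.5 TPM after activation and 16.3, 18.8 and 17.2 TPM with TRAIL. Both activated groups lay above medium and overlapped each other. The difference from medium was 0.39 on the log2 scale for activation (95% interval 0.12 to 0.66, limma adjusted p = 0.0145) and 0.48 with TRAIL (limma adjusted p = 0.0129), below the fold change threshold in both. TRAIL-treated and activated cells differed by 0.091 (95% interval -0.18 to 0.36), a value that turned to -0.29 under the CD3 scaling.

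Btla (chr16:45224315-45257670) was the most abundant of the 10 genes in medium and fell with activation. It held 323, 285 and 302 TPM in medium, 104, 111 and 110.3 TPM after activation and 172, 160.5 and 152 TPM with TRAIL, and the 3 groups were apart. Btla decreased by 1.47 on the log2 scale with activation (SE 0.0883, limma adjusted p = 2.0e-07), a decrease of 0.95 and not called under the CD3 scaling. TRAIL-treated cells differed from activated cells by 0.57 (limma adjusted p = 2.3e-04) and from medium by -0.91 (limma adjusted p = 7.7e-05), neither past the fold threshold. Under CD3 scaling the difference from activated cells was 0.17 (limma adjusted p = 0.122). B cells also express Btla, and the B cell markers given above were lowest and intermediate in the same groups.

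The transcript of Lag3 (chr6:124904361-124911705), whose product binds MHC class II, had the widest range of the 10 genes. It stood at 11.8, 16.3 and 12.3 TPM in medium, at 354, 373 and 381 TPM after activation and at 12.9, 11.9 and 11.2 TPM after activation with TRAIL. Every library activated without TRAIL was far above the 6 others, which overlapped between medium and TRAIL. Lag3 rose by 4.69 on the log2 scale with activation (SE 0.124, limma adjusted p = 8.8e-10) and fell by 4.83 with TRAIL relative to activation (SE 0.124, limma adjusted p = 9.1e-10). TRAIL-treated cells and medium differed by -0.14 (95% interval -0.42 to 0.13, limma adjusted p = 0.407), and the sign of this small difference turned under 2 of the scalings.

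Tigit (chr16:43648867-43664146), the coinhibitory receptor for PVR and Nectin-2, followed a like course on a smaller scale. Its levels were 16.6, 17.0 and 15.2 TPM in medium, 98.3, 87.4 and 95.5 TPM after activation and 23.9, 21.9 and 21.1 TPM with TRAIL. The TRAIL-treated libraries were slightly above medium without overlap. Tigit rose by 2.46 on the log2 scale with activation (SE 0.0960, limma adjusted p = 9.1e-09) and fell by 2.02 with TRAIL relative to activation (limma adjusted p = 4.2e-08). It differed from medium by 0.44 in TRAIL-treated cells (95% interval 0.22 to 0.65, limma adjusted p = 0.00755) and was not called.

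Havcr2 (chr11:46454935-46481255), which encodes the TIM-3 receptor of type 1 effector T cells and of myeloid cells, was the lowest of the 10 genes in every group. It was measured at 6.20, 7.06 and 5.94 TPM in medium, 4.62, 5.62 and 5.54 TPM after activation and 4.92, 5.25 and 4.78 TPM with TRAIL. The activated groups overlapped. The log2 difference of activated cells from medium was -0.24 (95% interval -0.51 to 0.021, limma adjusted p = 0.0919) and that of TRAIL-treated from activated cells was -0.062 (limma adjusted p = 0.662). Both differences changed sign under some scalings, the first to 0.089 and 0.21 and the second to 0.020.

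Cd160 (chr3:96798763-96829351), a receptor best known from NK and CD8 T cells, gave 18.3, 13.0 and 15.3 TPM in medium, 6.92, 7.57 and 6.02 TPM after activation and 10.97, 10.3 and 9.99 TPM with TRAIL. The 3 groups were apart, with TRAIL in the middle. Its decrease with activation was 1.07 on the log2 scale (SE 0.137, limma adjusted p = 5.6e-05), just past the fold threshold. The call was lost without medium replicate 1 (-0.95) and without stimulated replicate 3 (-0.995), and under 4 other settings. With TRAIL the difference from activated cells was 0.55 (limma adjusted p = 0.00501) and that from medium was -0.53 (limma adjusted p = 0.0162), neither past the fold threshold. The first was 0.19 under CD3 scaling (limma adjusted p = 0.241). The CD8 markers Cd8a and Cd8b1 summed to 110.04 to 118 TPM in medium, 94.2 to 105 TPM after activation and 46.9 to 49.4 TPM with TRAIL. The NK cell markers given above, 5 of 5 called lower with activation and 3 of 5 higher with TRAIL against activation, had their lowest and intermediate sums in the same groups as Cd160, and their part in its level was not tested.

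The ligand genes Cd274 and Cd200 were both raised by activation and lowered by TRAIL, but ended on different sides of medium. Cd274 (chr19:29367455-29388095), which encodes a ligand of PD-1, was at 32.5, 32.1 and 31.3 TPM in medium, 102, 131 and 124 TPM after activation and 53.5, 57.3 and 55.5 TPM with TRAIL. The TRAIL-treated libraries lay between the other groups without overlap. Cd274 rose by 1.86 on the log2 scale with activation (SE 0.104, limma adjusted p = 1.2e-07) and fell by 1.08 with TRAIL relative to activation (95% interval -1.31 to -0.85, limma adjusted p = 7.1e-06). That decrease was not called under median-of-ratios scaling (-0.99) or quantile normalization (-0.89). Against medium the TRAIL-treated cells differed by 0.78 (limma adjusted p = 5.6e-04) and were not called.

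Cd200 (chr16:45382135-45409053), whose product engages the inhibitory receptor CD200R1 on myeloid cells, was at 36.7, 30.4 and 33.2 TPM in medium, 110.2, 104 and 97.0 TPM after activation and 20.1, 18.5 and 17.5 TPM with TRAIL. Here the TRAIL-treated libraries were the lowest of the 9. Cd200 rose by 1.60 with activation (SE 0.104, limma adjusted p = 3.5e-07) and fell by 2.41 with TRAIL relative to activation (limma adjusted p = 2.2e-08). The difference from medium was -0.81 (95% interval -1.04 to -0.57, limma adjusted p = 4.6e-04), short of the fold threshold. Cd200 and Btla are neighbours on opposite strands of chromosome 16, 124 kb apart. The ratio of Cd200 to Btla was 0.110 ± 0.00345 in medium, 0.957 ± 0.0940 after activation and 0.116 ± 0.00133 with TRAIL, a description of a pair chosen after the values were seen.

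**Figure D2:**
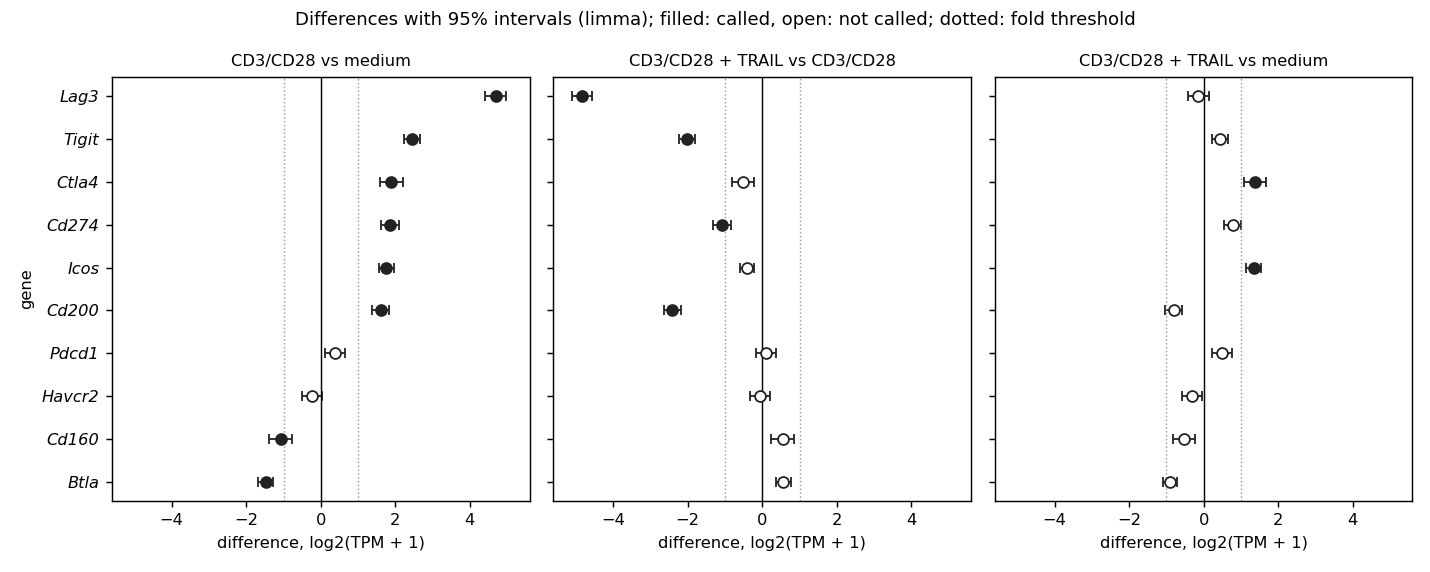
Differences between groups in log2(TPM + 1) from limma, with 95% intervals, for 10 genes ordered by the change on activation; filled points were called, open points were not, and dotted lines mark a log2 fold change of 1 either way. Lag3 lies at 4.69 for activation, at -4.83 for TRAIL against activation and at -0.14 for TRAIL against medium, whereas Ctla4 (1.38) and Icos (1.34) are the filled points of the last panel.

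The order of the genes by mean level differed between groups. Lag3 was at the 43.9th percentile of all tested genes by mean TPM in medium, at the 97.6th after activation and at the 44.5th with TRAIL. In medium it ran from Btla (303 TPM) through Ctla4 (65.4 TPM) and Icos (44.5 TPM) to Havcr2 (6.40 TPM), and the neighbours Cd200 and Cd274 overlapped, as did each neighbouring pair in the run of Tigit, Cd160, Lag3 and Pdcd1. After activation Lag3 (369 TPM) led, followed by Ctla4 (244 TPM) and Icos (152 TPM). Cd274, Btla, Cd200 and Tigit came next, between 119 and 93.7 TPM, each overlapping its neighbour. With TRAIL, Ctla4 (171 TPM) and Btla (161 TPM) led with overlapping ranges, and Cd200 and Pdcd1 also overlapped at 18.7 and 17.5 TPM.

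Shares within a library do not change when all its values are multiplied by one factor, although quantile normalization can change them. Btla made up 55.9 ± 0.263% of the summed TPM of the 10 genes in medium, 8.89 ± 0.137% after activation and 27.5 ± 2.36% with TRAIL (SD, n = 3). Lag3 made up 2.51 ± 0.622%, 30.3 ± 0.101% and 2.05 ± 0.193%. Ctla4 and Icos took their largest shares in the TRAIL-treated libraries, at 29.0 ± 3.03% and 19.4 ± 0.331%, compared with 20.04 ± 0.740% and 12.5 ± 0.279% after activation alone.

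**Figure D3:**
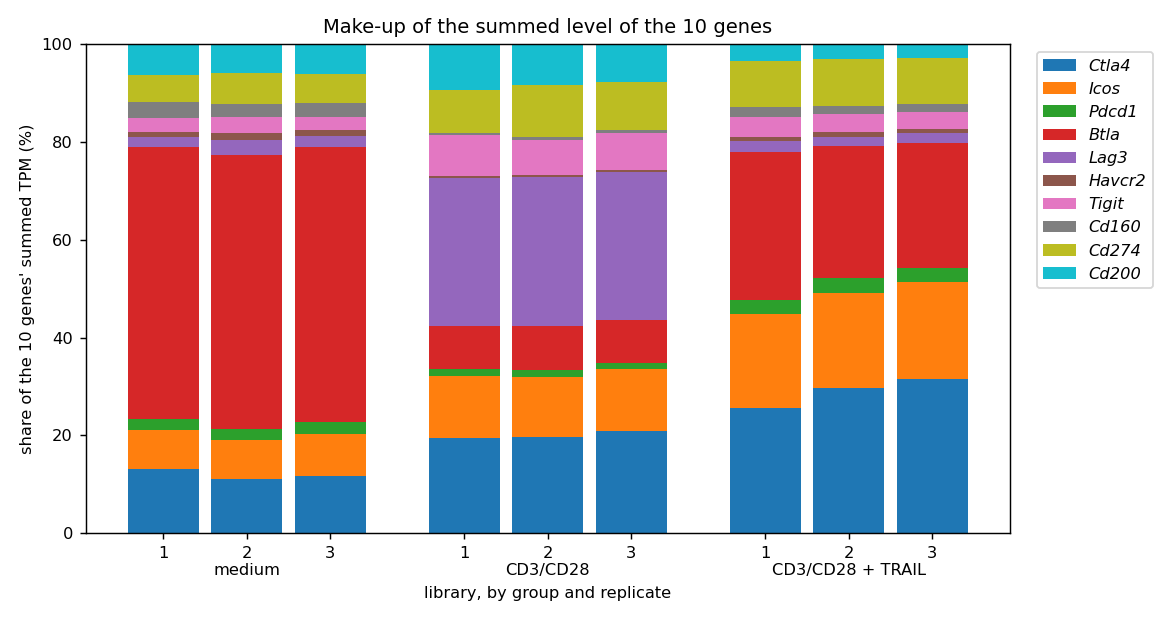
Share of each gene in the summed TPM of the 10 genes, in percent, for each of the 9 libraries by group and replicate. Btla takes 55.7 to 56.2% in medium, Lag3 takes 30.2 to 30.4% after activation, and Ctla4 takes 25.7 to 31.6% with TRAIL.

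Each of 3 coinhibitory receptors was then set against the receptor that binds the same ligands, as a ratio of TPM within a library. Ctla4 stood at 0.658, 0.441 and 0.549 of Cd28 in medium, 1.64, 1.46 and 1.64 of it after activation and 0.611, 0.751 and 0.884 of it with TRAIL. The activated libraries were above all others, and medium and TRAIL overlapped. Cd28 itself, the main costimulatory receptor of naive T cells, averaged 120 ± 7.77, 155 ± 13.8 and 230 ± 14.8 TPM (SD, n = 3). It was not called in any comparison and differed from medium by 0.93 on the log2 scale with TRAIL (limma adjusted p = 1.3e-04).

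Tigit and Cd226 moved in opposite directions. Cd226 fell from 61.2 ± 7.33 TPM in medium to 5.87 ± 0.624 TPM after activation and was at 60.3 ± 2.94 TPM with TRAIL (SD, n = 3), and both changes involving activation alone were called, by -3.18 and 3.16 on the log2 scale (limma adjusted p = 5.8e-09 and 7.7e-09). The ratio of Tigit to Cd226 was 0.243, 0.317 and 0.244 in medium, 18.2, 13.3 and 16.9 after activation and 0.379, 0.383 and 0.347 with TRAIL. No groups overlapped, and TRAIL-treated cells were above medium by 0.47 on the log2 scale. NK cells also express CD226, and the NK cell markers were lowest in the same group. With TRAIL, Cd226 differed from medium by -0.016 on the log2 scale, and all 5 NK cell markers were called lower than in medium. The part of NK cells in the level of Cd226 was not tested.

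Lag3 and Cd4 lie 16.1 kb apart on one strand of chromosome 6. The ratio of Lag3 to Cd4 was 0.0327, 0.0375 and 0.0346 in medium, 2.09, 1.52 and 1.55 after activation and 0.0304, 0.0301 and 0.0337 with TRAIL. Only the activated libraries stood apart. Cd4 averaged 384 ± 44.9, 220 ± 44.0 and 384 ± 46.7 TPM (SD, n = 3) and was not called in any comparison. Mean log2 ratios differed between activation and medium by 1.54 for Ctla4 to Cd28, 5.91 for Tigit to Cd226 and 5.61 for Lag3 to Cd4, and between TRAIL and activation by -1.09, -5.44 and -5.76. In an exact two-sided permutation test each of these 6 differences had p = 0.1, the smallest that 3 libraries against 3 can give. The 3 differences between TRAIL and medium had exact permutation p = 0.2 for Ctla4 to Cd28 (0.45), 0.1 for Tigit to Cd226 (0.47) and 0.2 for Lag3 to Cd4 (-0.15). Adjusted over the 9 tests, the smallest exact permutation p was 0.129, so none could pass 0.05 in this design.

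**Figure D4:**
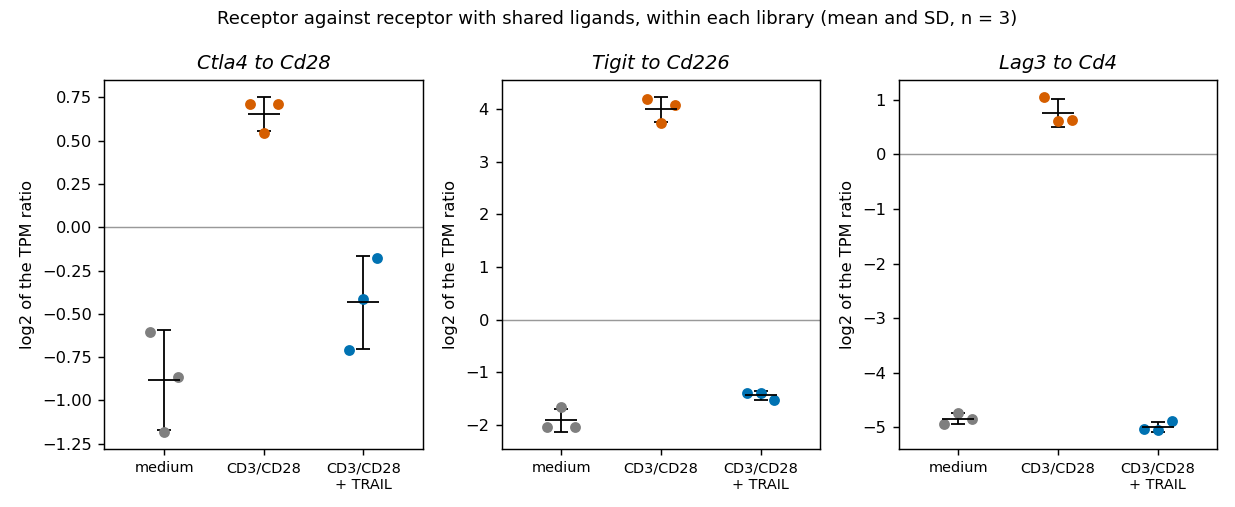
Log2 ratio of the TPM of Ctla4 to Cd28, Tigit to Cd226 and Lag3 to Cd4 within each library, by group; points are libraries, bars and whiskers are mean and SD (n = 3), and the grey line marks equal levels. All 3 ratios are above equality only in the libraries activated without TRAIL, with means of 0.66, 4.0 and 0.77.

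The gene lists that follow are read against the shares of all tested genes called, 12.4% higher and 19.5% lower with activation, and 16.6% higher and 14.3% lower with TRAIL against activation. These lists overlap in Cd28, Cd226, Cd96 and Ceacam1, so their counts are not independent. A list of 5 genes whose products share a binding partner with one of the 10 held the receptors Cd4, Cd28, Cd96 and Cd226 and the gene Tnfsf14, which encodes LIGHT, a ligand of the herpesvirus entry mediator. Of these, 1 was called higher and 2 lower with activation, and 2 higher and 1 lower with TRAIL against activation. The gene called higher and then lower was Tnfsf14, and those called lower and then higher were Cd96 and Cd226, all named after their values were seen. With TRAIL against medium limma called none, and 1 was higher at an unadjusted p under 0.05, as were 10.7% of all tested genes. By mean TPM over all 9 libraries, the third most abundant of them after Cd4 and Cd28 was Cd96, a receptor for PVR. Cd96 averaged 96.5 ± 6.86, 10.97 ± 1.26 and 91.9 ± 3.07 TPM in medium, activated and TRAIL-treated cells (SD, n = 3). Cd96 fell by 3.03 on the log2 scale with activation and rose by 2.96 with TRAIL against activation (limma adjusted p = 3.6e-09 and 5.5e-09).

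Of 13 genes for ligands and counter-receptors, 10 passed the filter, and 2 were called higher and 3 lower with activation. With TRAIL, 3 were called higher and 1 lower against activation, and 1 higher and 2 lower against medium, where 2.49% and 2.13% of all tested genes were called. The most abundant over all 9 libraries were Hmgb1, a nuclear protein that binds TIM-3 when released, Lgals9, another proposed TIM-3 ligand, and Tnfrsf14, the counter-receptor of BTLA and CD160. None of these 3 was called in any comparison, and Tnfrsf14 averaged 105 ± 7.95, 88.9 ± 24.4 and 54.9 ± 8.43 TPM in medium, activated and TRAIL-treated cells (SD, n = 3). Singled out after the values were seen, the second PD-1 ligand Pdcd1lg2 was at 4.66 ± 0.258, 22.1 ± 0.907 and 3.30 ± 0.149 TPM, and it rose by 2.03 and fell by 2.42 on the log2 scale (limma adjusted p = 5.4e-08 and 1.8e-08). The ratio of Cd274 to Pdcd1lg2 was 6.86 ± 0.327 in medium, 5.38 ± 0.589 after activation and 16.8 ± 1.05 with TRAIL.

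Among 12 other coinhibitory receptors, 1 was called higher and 8 lower with activation, and 8 were called higher and 1 lower with TRAIL against activation, with a median log2 fold change of -1.73 and then 1.35. Cd5 and Cd6, receptors of mature T cells that dampen antigen receptor signals, were the most abundant over all 9 libraries, with Pecam1. Cd5 averaged 253 ± 28.2, 279.5 ± 22.7 and 280.5 ± 35.5 TPM and Cd6 averaged 202 ± 22.4, 276 ± 42.6 and 217 ± 33.5 TPM, and neither was called. Pecam1, an adhesion molecule of leukocytes and endothelium, was at 209 ± 5.91, 61.3 ± 10.7 and 184 ± 12.9 TPM (SD, n = 3) and fell by 1.76 with activation (limma adjusted p = 7.3e-07). The list holds genes that B, NK and myeloid cells express, and the markers of those cells given above were lowest after activation too.

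Of 10 costimulatory receptors, 6 were called higher and 2 lower with activation, and 2 higher and 5 lower with TRAIL against activation. Limma called none against medium, where 5 were higher and none lower at an unadjusted p under 0.05, compared with 10.7% and 33.3% of all tested genes. Tnfrsf4 (OX40) rose from 50.2 ± 2.58 TPM to 1074 ± 46.9 TPM and was at 85.4 ± 2.21 TPM with TRAIL (SD, n = 3). Cd2, an adhesion and costimulatory receptor, averaged 392 ± 1.79, 839 ± 45.9 and 446 ± 3.47 TPM, and Cd27 averaged 265 ± 28.5, 234 ± 21.9 and 233 ± 32.1 TPM with no call. Cd2 rose by 1.09 with activation (limma adjusted p = 8.2e-07).

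In a list of 12 genes for phosphatases, adaptors and other proteins such as the kinase Csk, limma called none higher and 4 lower with activation. It called 3 higher and none lower with TRAIL against activation. At an unadjusted p under 0.05, 1 was higher with activation and 4 were lower with TRAIL, compared with 29.9% and 34.9% of all tested genes. Ptpn6, which encodes SHP-1, averaged 555 ± 36.3, 337 ± 50.03 and 305 ± 22.8 TPM (SD, n = 3). Its log2 differences were -0.73 for activation (limma adjusted p = 3.9e-04), -0.14 for TRAIL against activation and -0.86 for TRAIL against medium, none past the fold threshold. Csk, a kinase that restrains Lck, averaged 324 ± 37.3, 253 ± 13.3 and 199.8 ± 28.4 TPM and Bag6, a partner of TIM-3, averaged 161 ± 28.7, 145 ± 38.8 and 147 ± 12.5 TPM, with no call.

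Of 21 transcription factors described as acting on these genes, 7 were called higher and 4 lower with activation, 7 higher and 6 lower with TRAIL against activation, and 6 higher and none lower with TRAIL against medium. In that last comparison, where 2.49% of all tested genes were called higher, 3 were lower at an unadjusted p under 0.05 in limma, as were 33.3% of all tested genes. By mean TPM over all 9 libraries the most abundant were Tcf7, Nr4a1 and Irf1, whereas Irf4 was above all 3 after activation. Nr4a1, an early response gene downstream of the antigen receptor, averaged 177 ± 19.0 TPM in medium, 215 ± 21.1 TPM after activation and 1926 ± 48.6 TPM with TRAIL (SD, n = 3), and rose by 3.16 with TRAIL relative to activation (limma adjusted p = 4.5e-09). Tcf7, a factor of naive and memory T cells, averaged 1085 ± 184, 511 ± 116 and 1063 ± 164 TPM and was called lower with activation and higher with TRAIL against activation. Irf1, an interferon-induced factor described at the Cd274 promoter, averaged 231 ± 8.85, 455 ± 49.5 and 436 ± 59.1 TPM and was not called. Its log2 difference from medium was 0.97 after activation (limma adjusted p = 4.5e-05) and 0.91 with TRAIL (limma adjusted p = 5.4e-04). Among the factors given after their values were seen, Irf4 averaged 57.2, 734 and 183 TPM and Nr4a2 averaged 5.82, 15.3 and 118 TPM, and both were called higher than medium in both activated groups.

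For the 9 genes that averaged 10 TPM or more in some group, the genes nearest in pattern were sought among 9228 others, by the root mean square difference of 9 centred log2(TPM + 1) values. This is a description over 9 libraries in 3 groups. The nearest gene to Ctla4 was Icos and the reverse, at 0.117. Slc16a1, a monocarboxylate transporter, came next for both, at 0.154 from Ctla4 and 0.125 from Icos. Lag3 was nearest to Tnfrsf8 (0.150), which encodes CD30, and to Tpi1 (0.177), a glycolytic enzyme that averaged 64.9, 1519 and 59.1 TPM in the 3 groups. Tigit was nearest to Pim2 (0.0959) and Chst2 (0.115), Cd274 to Lilrb4a (0.104) and Tnfsf9 (0.138), and Cd200 to Erg28 (0.0883) and Tgtp1 (0.0896). Pdcd1 was nearest to Sqstm1 and Azin1, Btla to Tmem106b and Zfp595, and Cd160 to Scrn3 and Ostm1, at 0.0563 to 0.0934.

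Promoter windows from RefSeq (GRCm38.p6), 250 bases before the annotated start, were read for 8 of the 10 genes. Lag3 and Icos were not among them. They were searched on both strands for the NFAT core GGAAA and for the AP-1 element TGANTCA, since NFAT and AP-1 are activated by the antigen receptor and CD28. Cd160 had 2 windows and the others 1 each. The first motif was found in 5 of these 9 windows, 1 of them of Cd160, and in 55.6% of all 32851 windows, and the second in 1 of the 9, that of Havcr2, and in 6.75% of all windows. The windows of 4 genes are shown 5′ to 3′ on the gene's own strand, with matches to either motif in capitals. Ctla4 stayed above medium with TRAIL, Tigit and Cd200 were raised by activation and lowered by TRAIL, and Pdcd1 was called in no comparison. The windows of Btla and Cd160, which were called lower with activation, are among those not shown. The Ctla4 window is at chr1:60908775-60909024 on the plus strand. Those of Tigit at chr16:43664185-43664434, Cd200 at chr16:45409054-45409303 and Pdcd1 at chr1:94052554-94052803 are on the minus strand. The RefSeq start of Tigit lies 38 bases outside the locus in the table. The Ctla4 window lies inside the Ctla4 locus in the table, which begins at base 60887000, and not just before it.
Ctla4: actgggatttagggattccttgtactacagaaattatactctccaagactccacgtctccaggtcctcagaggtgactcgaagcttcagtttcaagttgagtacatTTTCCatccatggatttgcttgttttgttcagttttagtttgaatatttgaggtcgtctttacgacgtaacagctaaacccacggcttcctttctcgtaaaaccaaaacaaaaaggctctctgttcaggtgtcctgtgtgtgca
Tigit: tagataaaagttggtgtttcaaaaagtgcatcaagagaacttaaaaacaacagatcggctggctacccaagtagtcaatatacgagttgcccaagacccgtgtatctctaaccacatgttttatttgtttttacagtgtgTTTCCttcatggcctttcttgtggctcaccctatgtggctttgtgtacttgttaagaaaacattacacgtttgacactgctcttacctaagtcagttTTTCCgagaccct
Cd200: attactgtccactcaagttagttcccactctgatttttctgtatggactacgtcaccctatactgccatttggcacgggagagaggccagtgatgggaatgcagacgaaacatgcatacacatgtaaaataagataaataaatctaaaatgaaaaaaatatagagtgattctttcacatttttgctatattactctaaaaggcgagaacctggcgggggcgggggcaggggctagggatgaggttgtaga
Pdcd1: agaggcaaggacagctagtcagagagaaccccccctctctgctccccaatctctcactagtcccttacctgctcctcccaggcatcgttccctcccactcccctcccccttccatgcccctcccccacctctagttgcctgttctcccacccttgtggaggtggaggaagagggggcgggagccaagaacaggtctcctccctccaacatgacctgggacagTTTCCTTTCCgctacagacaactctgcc
The Ctla4 window holds 1 match, which begins 144 bases before the start, the Tigit window holds 2, at 110 and 13 bases before it, and the Pdcd1 window holds 2 adjoining ones, at 28 and 23 bases before it. The Cd200 window holds none. A match describes letters in the window and not a bound site.

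The loci of Ctla4 and Icos overlap other transcribed annotation on the same strand. Within Ctla4 lies the pseudogene Rpl18-ps1, listed at up to 40.0 TPM, and within Icos lies Gm37039, at up to 3.602 TPM. On the opposite strand, Pdzk1 overlaps Cd160, at up to 0.312 TPM, and the antisense gene AC119228.1 overlaps Cd274, with no level given here. The sources used here do not say whether counting took strand into account or how reads shared by overlapping genes were assigned.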

How the data were processed

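RNA was extracted with TRIzol and libraries were prepared with an Agilent SureSelect mRNA kit. The submitters' processing notes list Trimmomatic 0.36, HISAT2 2.1.0, SAMtools 1.2, StringTie 2.1.2 and DESeq2 without their roles, and a human build, whereas the study's methods name GRCm38. The loci in the table matched GENCODE M21 (GRCm38) for 99.3% of the identifiers found there. TPM values per gene and library were deposited by the authors, and sum to 1000000 in each library. The program that made them is not given in the sources used here. TPM keeps no read numbers, so depth and counting error are unknown.

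All 9 libraries were grouped from the sample labels and fitted together in R 4.3.3 with limma 3.58.1 (lmFit, eBayes with trend) on log2(TPM + 1), for the 15536 genes that reached 1 TPM in 3 or more libraries, without a replicate block. Receptor ratios were tested with exact permutation tests (scipy 1.17.1). Tables and figures used Python 3.11.15, pandas 2.3.3 and matplotlib 3.10.9. The fit was tested on simulated data. The genes followed and the lists beside them were chosen with earlier results of these data known. All 10 genes were named with every library. Of each other list the rule took the 3 genes of highest mean TPM over all 9 libraries, with Cd28, Cd226 and Cd4, and the 2 genes nearest in pattern to each of the 9 that averaged 10 TPM or more in some group. Markers are given mainly as sums, and every other gene given by name was chosen after its values were seen. Alternatives varied the pseudocount, filter, scaling, variance trend, libraries in the fit, replicate block and fold threshold, and left out each library in turn. Protein sequences were not analysed here.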

Additional observations from a re-analysis of the deposited data

How the results depend on the processing

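Of the 14 changes called among the 10 genes, 11 were called under all 20 alternatives, and the other 3 were the decreases of Cd160 and Btla with activation and of Cd274 with TRAIL. Decreases of Cd160 fell short of the fold threshold at a pseudocount of 5 (-0.79), under median-of-ratios scaling (-0.98), quantile normalization (-0.80) and CD3 scaling (-0.59), and without medium replicate 1 or stimulated replicate 3. Signs of uncalled differences turned for Havcr2 with activation (0.089 under quantile normalization and 0.21 under CD3 scaling), for Havcr2 with TRAIL against activation (0.020, median-of-ratios), for Lag3 against medium (0.034, median-of-ratios, and 0.055, quantile) and for Pdcd1 with TRAIL against activation (-0.29, CD3 scaling). Without a fold threshold the numbers of the 10 genes called were 9, 8 and 8 in place of 8, 4 and 2, and 68.7%, 67.1% and 32.6% of all tested genes were called in that way. The cause was not tested.

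Scaling also shifted the median difference over all genes, with activation by 0.19 under quantile normalization and 0.47 under CD3 scaling, with TRAIL against activation by -0.35 under CD3 scaling, and against medium by 0.17 under median-of-ratios scaling, 0.14 under quantile normalization and 0.11 under CD3 scaling. Higher genes made up 38.8% of all calls with activation (52.1% under quantile normalization and 65.8% under CD3 scaling), 53.75% with TRAIL against activation (32.5% under CD3 scaling) and 53.9% against medium (74.2% median-of-ratios, 70.6% quantile, 69.4% CD3). All 9 receptor ratios kept their direction with 1 TPM added to both genes and without each library. Same-numbered libraries of different groups correlated at -0.31 to 0.29 in their deviations from the group means, with 3 of 9 pairs above 0.1, so the numbers were not taken to pair the libraries. With a replicate block the calls among the 10 genes numbered 8, 4 and 2, as without it. The precision of low genes such as Havcr2 and Pdcd1 cannot be set against read depth, which TPM does not keep.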
